A study of Mus musculus with 24 samples.

Results

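A methylation level in liver, brain and heart alike was present for 758685 tiles of 100 bp. Of these, 2815 distal tiles lay more than 10 kb from every RefSeq gene start and were unmethylated in all 3 tissues. They were chosen by measured values and by sequence together: a mean level under 10% over all libraries of each tissue, 1 to 6 CpGs in the mm10 sequence of the tile, fewer than 50 soft-masked (repeat) bases, and more than 10 kb to the nearest RefSeq transcription start, curated or predicted. They are called distal unmethylated tiles here. They made up 0.971% of the 290005 tiles that met the limits on CpG number, repeats and distance, and 2.64% of the 106630 tiles of any kind that were below 10% in the 3 tissues, of which 84.7% lay within 1 kb of a start. Because the levels chose these tiles, their own levels are a description and carry no test.

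DNA methylation was measured by enhanced reduced representation bisulphite sequencing (RRBS), which reads CpG-rich restriction fragments after bisulphite treatment, in liver (12 libraries), brain (6 libraries) and heart (6 libraries) of untreated male and female C57Bl/6J mice at 24 weeks of age. The libraries of a tissue could not be assigned to single mice or to a gender, since the level columns carry running numbers only, so tissues were compared and genders were not. Brain and heart came from mice whose livers were also sampled, per the study's methods and titles, so the tissues share animals. The test between tissues treated all libraries as independent. For some mouse numbers the titles give different genders in different tissues, and no value here rests on gender. The files hold levels without read counts, the depth behind each level is unknown, and no interval on a single level could be given. The tissues are bulk samples, in which a level of a few percent in every cell and a small part of cells with full methylation cannot be told apart.

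In mammalian genomes most CpGs are methylated, and CpG islands, short stretches rich in CpG that sit at many gene starts, are the best known exception. Away from gene starts, low methylation is known from enhancers, from the sites of the insulator protein CTCF, which binds a long motif with several of its zinc fingers and anchors chromatin loops, and from CpG islands inside or between genes, many of which mark genes of developmental transcription factors. CTCF is also known as a factor whose binding is hindered by methylation of a CpG in its motif.

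Sequences were read from mm10 (GRCm38, plus strand). Tiles with the long CTCF motif, which had the largest ratio of its share in distal unmethylated tiles to that in other distal tiles among the motifs searched, are represented by the 5 with the lowest mean level, named by the nearest RefSeq gene, with the motif in capitals.
Spns3, chr11:72570701-72570800: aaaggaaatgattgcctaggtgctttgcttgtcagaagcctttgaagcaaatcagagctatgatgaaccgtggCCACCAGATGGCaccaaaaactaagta
Rcn3, chr7:45080001-45080100: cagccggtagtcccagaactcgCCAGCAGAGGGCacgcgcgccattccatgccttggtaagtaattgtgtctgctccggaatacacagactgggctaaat
Slc38a4, chr15:96936901-96937000: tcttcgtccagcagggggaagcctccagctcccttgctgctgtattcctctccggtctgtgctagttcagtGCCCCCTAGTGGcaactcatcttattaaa
Tmem260, chr14:48367201-48367300: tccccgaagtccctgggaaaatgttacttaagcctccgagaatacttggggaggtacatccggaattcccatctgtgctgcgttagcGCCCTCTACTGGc
Gm33143, chr6:99804401-99804500: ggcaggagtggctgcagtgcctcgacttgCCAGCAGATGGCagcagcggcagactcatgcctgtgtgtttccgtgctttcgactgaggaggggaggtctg

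The 5 tiles that stood out most from methylated surroundings, among those below 10% in every library, are shown with each CpG in capitals, since the few CpGs in these bases carry the whole measured level.
Hsp90aa1 (right), chr12:110707101-110707200: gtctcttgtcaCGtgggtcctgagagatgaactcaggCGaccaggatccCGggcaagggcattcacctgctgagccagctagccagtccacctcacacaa
Hsp90aa1 (left), chr12:110706901-110707000: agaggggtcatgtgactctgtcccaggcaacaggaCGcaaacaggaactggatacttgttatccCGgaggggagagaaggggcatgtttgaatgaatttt
Gm39040, chr7:79228701-79228800: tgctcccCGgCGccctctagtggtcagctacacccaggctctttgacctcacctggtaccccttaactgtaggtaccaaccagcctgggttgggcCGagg
Cr2, chr1:195241501-195241600: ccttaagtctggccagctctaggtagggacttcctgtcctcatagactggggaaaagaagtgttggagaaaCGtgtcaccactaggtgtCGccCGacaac
Esrrb, chr12:86402801-86402900: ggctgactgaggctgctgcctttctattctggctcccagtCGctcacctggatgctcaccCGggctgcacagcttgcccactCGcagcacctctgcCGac

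The tile farthest from any RefSeq start and 1 tile each of a pair of long runs of distal unmethylated tiles are shown in the same way, for their contrast in CpG number and base composition.
Kcnj3, chr2:56025401-56025500: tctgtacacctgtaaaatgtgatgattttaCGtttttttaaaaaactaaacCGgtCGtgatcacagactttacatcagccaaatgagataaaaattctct
Cbx8, chr11:119056401-119056500: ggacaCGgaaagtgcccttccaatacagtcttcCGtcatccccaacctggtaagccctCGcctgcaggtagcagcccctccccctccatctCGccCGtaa
Mir688, chr15:102693201-102693300: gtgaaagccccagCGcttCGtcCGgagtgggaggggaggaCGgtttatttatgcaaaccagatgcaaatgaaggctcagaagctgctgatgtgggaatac

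The levels of the distal unmethylated tiles were low in every library and lowest in heart. The median level over the 2815 tiles was 2.87% ± 0.477 in liver (SD, n = 12 libraries), 2.65% ± 0.164 in brain (SD, n = 6) and 2.07% ± 0.121 in heart (SD, n = 6). The liver libraries ran from 2.4% through a median of 2.75% to 4.2%, the brain libraries from 2.4% through 2.65% to 2.9%, and the heart libraries from 1.9% through 2.05% to 2.2%. All heart libraries were thus below all liver and brain libraries, while liver and brain overlapped. Heart was also lowest over all tiles, with a mean of 59.8% ± 0.255 against 65.3% ± 0.332 in liver and 65.2% ± 0.916 in brain, and its part in the difference at distal unmethylated tiles was not tested.

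**Figure D1:**
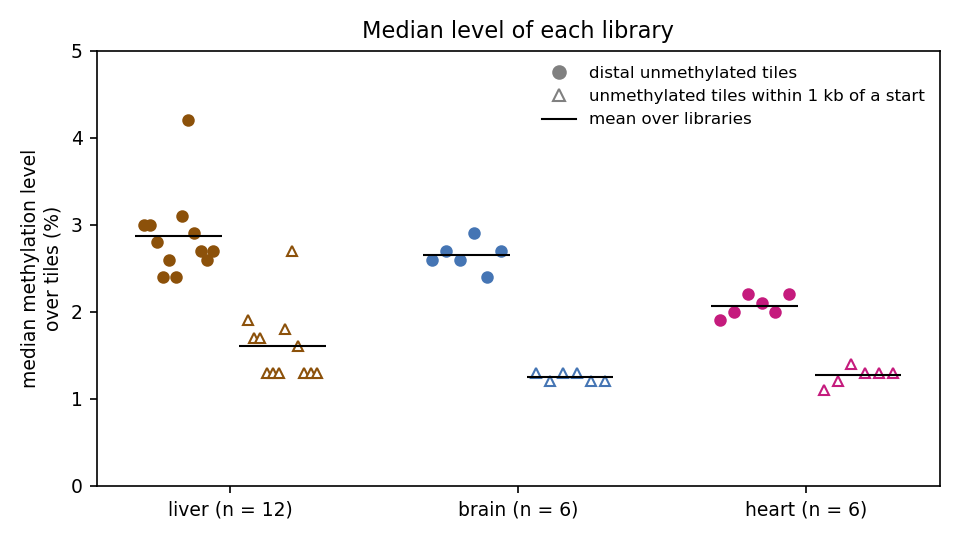
The vertical axis gives the median methylation level (%) of each library over the distal unmethylated tiles (filled circles) and over unmethylated tiles within 1 kb of a start (open triangles), with tissues along the horizontal axis and a black line at the mean over libraries. Liver column 8 is the highest point of both kinds, at 4.2% and 2.7%, and in each tissue the circles lie above the triangles of the same library.

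Liver column 8 stood apart, with 87.5% of the distal unmethylated tiles below 10% against 93.1% to 96.3% in the other liver libraries. Leaving it out changed the number of tiles chosen from 2815 to 2827. In the 33231 unmethylated tiles with the same limits on CpG number and repeats that lay within 1 kb of a start, called start-proximal tiles here, the libraries had median levels of 1.6% ± 0.416 for liver, 1.25% ± 0.0548 for brain and 1.27% ± 0.103 for heart (SD, n as above). Liver column 8 was the highest there too, at 2.7%. In the 287190 other distal tiles with the same limits on CpG number, repeats and distance, called comparison tiles here, the medians were 85.0% ± 0.414, 83.5% ± 1.13 and 77.2% ± 0.314.

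Most distal unmethylated tiles were far below the threshold. All 3 tissue means were under 5% in 1642 tiles (58.3%), and 1548 tiles (55.0%) were below 10% in each of the 24 libraries. In 93 tiles at least 1 library reached 20% or more, and the highest single value was 33.3%. A value of exactly 0 made up 15.5% of all library values, and 3 tiles were at 0 in all libraries. The range over the 3 tissue means had a median of 2.06 percentage points and was under 2 points in 1370 tiles (48.7%). The lowest tissue was heart in 1395 tiles, brain in 901 and liver in 519. Heart was the lowest tissue in 49.6% of these tiles, in 38.7% of start-proximal tiles and in 57.5% of all tiles.

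The 290005 tiles within the limits fell into a large methylated group and a small unmethylated one, when each was placed by its highest tissue mean. There were 434 tiles under 2%, 906 from 2% to 4%, 562 from 4% to 6%, 488 from 6% to 8% and 425 from 8% to 10%, and then 410, 388, 400, 458 and 403 in the next 5 steps of 2 points up to 20%. At 80% or more there were 202670 tiles, 69.9% of them all. The threshold thus cut through a flat stretch of the distribution and not through a gap. Just inside it were a tile at chr9:43864201-43864300 nearest Gm39322, with 9.99% in liver, 9.53% in brain and 1% in heart, a tile at chr8:56623001-56623100 nearest Fbxo8, with 9.99%, 7.35% and 9.17%, and a tile at chr2:126599201-126599300 nearest Hdc, which encodes the enzyme that makes histamine, with 9.99%, 6.15% and 2.55%. The first tiles outside had a tissue mean of exactly 10%, in liver at chr5:3151801-3151900 nearest Gm15772 (with 3.65% in brain and 5.97% in heart) and in heart at chr15:96953401-96953500, 66859 bp from the start of the amino acid transporter gene Slc38a4 (with 9.45% in liver and 6.70% in brain) and at a tile nearest Gm41703 (with 7.53% and 3.07%).

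More CpGs went with a larger unmethylated share. Of the tiles within the limits, 0.442% were distal unmethylated tiles among those with 1 CpG, 0.638% with 2, 1% with 3, 1.75% with 4, 3.10% with 5 and 5.03% with 6. The distal unmethylated tiles had 3 CpGs at the median and the comparison tiles 2. Their GC content was 53.7% on average, against 51.04% in comparison tiles standardised to the same CpG numbers and distances and 53.8% in start-proximal tiles standardised to the same CpG numbers. Standardised here means that the share or mean in the comparison tiles was taken for each CpG number and each of 4 distance classes (10 to 20, 20 to 50, 50 to 100 and over 100 kb) and weighted by the numbers of distal unmethylated tiles in them.

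Distance worked the other way. The unmethylated share was 1.44% at 10 to 20 kb from a start, 0.943% at 20 to 50 kb, 0.588% at 50 to 100 kb and 0.406% beyond 100 kb, where 151 of the tiles lay. By chromosome it ranged from 0.550% on chromosome 16 to 1.43% on chromosome 11. The distance depends on which starts are counted, and GENCODE M21 transcripts, which include more non-coding genes, left 1793 of the 2815 tiles (63.7%) over 10 kb from any start. A GENCODE start lay within 1 kb of 377 tiles (13.4%, exact 95% interval 12.2% to 14.7%), against 8.20% of comparison tiles. The nearest such start belonged to a protein-coding gene in 155 cases, to a lincRNA in 99 and to a processed pseudogene in 39. The intervals on shares reflect only the counting of tiles and take no account of the likeness of neighbouring tiles.

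**Figure D2:**
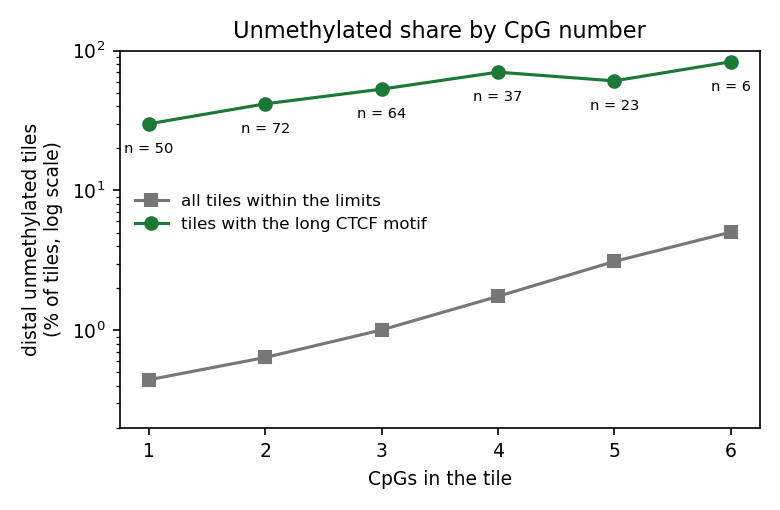
The horizontal axis gives the CpGs in a tile and the vertical axis, on a log scale, the share of tiles within the limits that were distal unmethylated tiles, for all tiles (squares) and for tiles with the long CTCF motif (circles, with the number of tiles). The squares rise from 0.442% to 5.03% and the circles run from 30% at 1 CpG to 83.3% at 6, with 60.9% at 5 below 70.3% at 4.

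The long CTCF motif had the largest ratio to the comparison share of the motifs searched. It lay inside 124 distal unmethylated tiles (4.41%, exact 95% interval 3.68% to 5.23%), against 0.0465% of standardised comparison tiles and 0.164% of start-proximal tiles. In a window of 300 bp around the tile it was found at 323 tiles (11.5%, 10.3% to 12.7%), against 0.197% and 0.656%. The motif has 12 positions, was searched on both strands and is given by name only, since some positions allow 2 bases. Read from the motif, 252 tiles within the limits held it, and 124 of them (49.2%, 42.9% to 55.5%) were distal unmethylated tiles, against 0.929% of the tiles without it. This share was 30% among 50 motif tiles with 1 CpG, 41.7% among 72 with 2, 53.1% among 64 with 3, 70.3% among 37 with 4, 60.9% among 23 with 5 and 83.3% among 6 with 6.

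The motif tiles that were not chosen were also lower than other distal tiles. All 252 motif tiles together had a median level of 8.20% in liver, where tiles without the motif had 84.7%, of 6.37% in brain (82.8% without) and of 5.78% in heart (77.0% without). The 128 motif tiles that missed the 10% limit in at least 1 tissue had medians of 48.8%, 39.8% and 35.1%. A mean over the 3 tissues below 50% was seen in 198 of the 252 tiles (78.6%) and in 13.01% of tiles without the motif.

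In the 124 distal unmethylated tiles the motif stood on the plus strand in 69 and on the minus strand in 55. It was followed by a G, which makes a CpG of its last base, in 58 of 124 motifs (46.8%). In comparison tiles 21 of the 128 motifs (16.4%) were followed by a G. These shares were not standardised to CpG number, and motif tiles with 1 CpG were less often distal unmethylated tiles (30%) than those with 4 (70.3%). The shorter core AGGNGGC is contained in only some forms of the long motif. This core was in 15.03% of distal unmethylated tiles, 6.63% of comparison tiles and 9.92% of start-proximal tiles. A match is a description of the letters and was not set against binding data.

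The 5 motif tiles with the lowest mean levels were below 6% in every library. The tile 20192 bp from the start of Spns3 had 1 CpG and was at 0 in each brain and heart library, and the liver libraries ran from 0 through a median of 0 to 2.8%. It lay in an exon of the predicted RefSeq gene Gm51906. The tile 12113 bp from Rcn3, which encodes a calcium-binding protein of the endoplasmic reticulum, had 6 CpGs and levels of 0.2% to 1.9% in liver (median 0.65%), 0.3% to 0.8% in brain (median 0.55%) and 0 to 3.4% in heart (median 0.6%). The 3 tissues overlapped in both tiles. The intergenic tiles near Slc38a4, Tmem260 and Gm33143 lay 83359, 78823 and 60590 bp from a RefSeq start. Their highest library values were 3.5%, 3.6% and 5.9%. GENCODE starts were nearer to all 5 motif tiles, at 2530, 3593, 13496, 2799 and 33744 bp in the order named. All 5 had no stretch of 31 bases in common with another place in the genome. Neighbouring tiles of the Rcn3 tile had median levels of 41.5%, 44.9% and 31.4% in liver, brain and heart, those of the Gm33143 tile 15.4%, 32.2% and 17.7%, and the 1 neighbour of the Slc38a4 tile was itself low, at 4.84%, 1.55% and 0.6%.

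Other motifs differed by smaller ratios. The motif GGGCGG of the SP and KLF factors, which are known from CpG islands, was in 8.03% of distal unmethylated tiles (7.05% to 9.09%), 3.67% of comparison tiles and 8.34% of start-proximal tiles. The motif TTCCCGC of the E2F factors, cell cycle regulators, was in 1.24% (0.868% to 1.73%) against 0.711% and 1.23%. The RFX motif GTTGCCATG was in 10 tiles (0.355%, 0.171% to 0.652%) against 0.103% and 0.121%, and the long motif of REST, a repressor of neuronal genes, in 4 tiles (0.142%, 0.0387% to 0.363%) against 0.0155% and 0.0267%. These last 2 shares rest on few tiles. The intervals of the motifs of AP-1 (TGANTCA, 2.91% against 2.64%), GATA factors (AGATAAG, 1.21% against 1.09%), FOX factors (TGTTTAC, 1.24% against 1.20%), ETS factors (CCGGAAG, 3.41% against 3.75%), YY1 (AANATGGCG, 0.320% against 0.260%) and ZNF143 (ACTACAA, 0.675% against 0.757%) included the share in comparison tiles. So did those of NRF1 (GCGCNTGCG, 0.213% against 0.196%), the cyclic AMP element (TGACGTCA, 0.284% against 0.186%), the E-box CACGTG (2.24% against 2.53%), MEF2 (0.142% against 0.119%) and NFY (0.604% against 0.536%). The motif CAAAGTCC of HNF4, a liver factor, was in 0.711% (0.434% to 1.09%) against 0.413% of comparison tiles and 0.562% of start-proximal tiles. In windows of 300 bp, more intervals lay above the comparison share. NRF1 was then found at 1.21% of distal unmethylated tiles (0.838% to 1.68%) against 0.459%, the cyclic AMP element at 0.782% (0.490% to 1.18%) against 0.424%, the SP and KLF motif at 24.1% (22.5% to 25.7%) against 8.30%, E2F at 3.77% (3.09% to 4.54%) against 1.70%, RFX at 0.817% (0.519% to 1.22%) against 0.326%, HNF4 at 1.88% (1.41% to 2.46%) against 1.34% and REST at 6 tiles (0.213%, 0.0783% to 0.463%) against 0.0414%. Start-proximal tiles had higher shares than distal unmethylated tiles in this window for NRF1 (2.46%), the SP and KLF motif (31.3%) and E2F (5.21%). Their shares were 0.722% for the cyclic AMP element, 1.56% for HNF4, 0.418% for RFX and 0.133% for REST. The intervals of AP-1, GATA, FOX, ETS, YY1, ZNF143, the E-box, MEF2 and NFY included the comparison share in this window too. In all, 18 motifs of factors were searched, both strands, with overlaps between motifs left in.

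**Figure D3:**
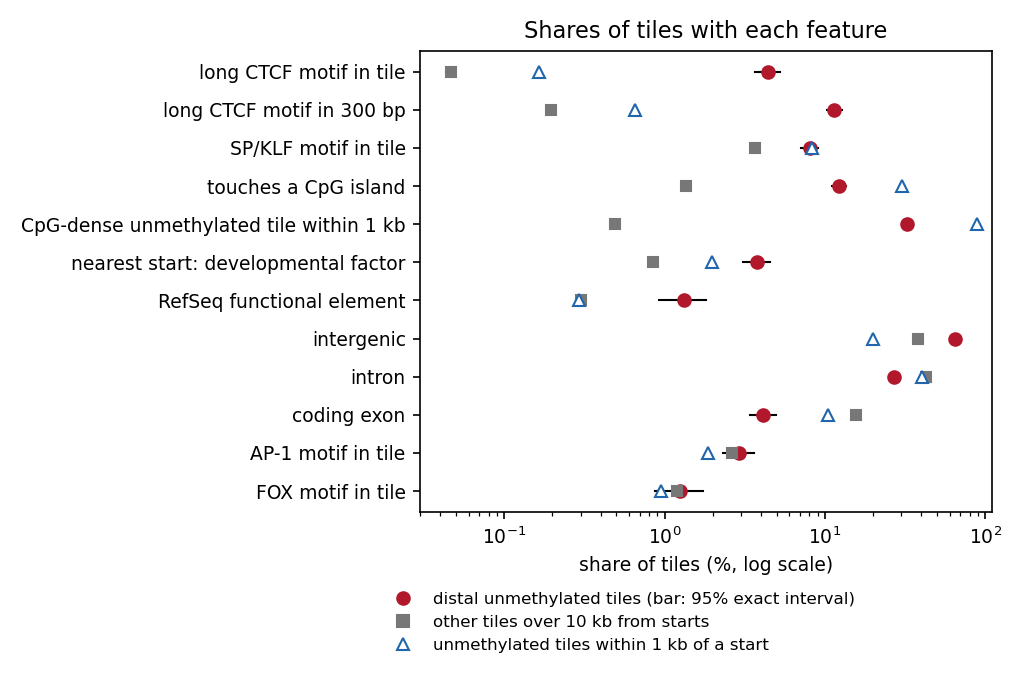
The horizontal axis gives, on a log scale, the share of tiles (%) with each feature for distal unmethylated tiles (red circles with exact 95% intervals), other distal tiles standardised to the same CpG numbers and distances (grey squares), and unmethylated tiles within 1 kb of a start standardised to the same CpG numbers (open triangles). The long CTCF motif in a tile stands at 4.41%, 0.0465% and 0.164%, while the AP-1 and FOX motifs lie at about the same share in the first 2 kinds of tile.

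The distal unmethylated tiles were mostly intergenic. By RefSeq, 1829 of them (64.97%, 63.2% to 66.7%) lay between genes, 760 (27.0%, 25.4% to 28.7%) in introns, 116 (4.12%, 3.42% to 4.92%) in coding exons and 110 (3.91%, 3.22% to 4.69%) in other exons. Standardised comparison tiles were intergenic in 37.9%, intronic in 42.7%, in coding exons in 15.7% and in other exons in 3.78%. The 37 tiles in functional elements of RefSeq, regions with published experiments, were 1.31% (0.927% to 1.81%) against 0.299%. Of these, 30 lay in 12 enhancers tested in mouse embryos by the VISTA project. The enhancer with the most was at chr10:120551958-120553597 nearest Gm34952, where 7 of 11 measured tiles were distal unmethylated tiles and all 11 were below 10% in the 3 tissues. The enhancer at chr7:110162809-110166321 nearest Wee1, a cell cycle kinase gene, held 4, with a mean level of 1.10%. A pair of tiles lay in an enhancer of Isl1, a homeobox gene of motor neurons and heart progenitors, at chr13:116292290-116296154, with a mean of 3.69%.

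CpG islands and CpG-dense unmethylated neighbours accounted for another group. A CpG island, called on repeat-masked sequence, was touched by 346 distal unmethylated tiles (12.3%, 11.1% to 13.6%), by 1.37% of comparison tiles and by 30.4% of start-proximal tiles. A further 369 (13.1%) lay within 2 kb of an island without touching it, against 2.28% and 55.9%. An unmethylated tile of 7 or more CpGs, too CpG-rich to be chosen itself, lay within 1 kb of 913 tiles (32.4%, 30.7% to 34.2%), against 0.492% of comparison tiles and 88.3% of start-proximal tiles.

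Sorted in order by the long CTCF motif within 300 bp, then by an island or a CpG-dense unmethylated neighbour, then by a GENCODE start within 1 kb, the tiles fell into groups of 323 (11.5%), 919 (32.6%), 112 (3.98%) and a remainder of 1461 (51.9%) with none of these. Both the motif and an island or CpG-dense neighbour were found at 18 tiles, which were counted with the motif. The own level differed little between the groups, at medians of 2.67%, 2.66%, 3.11% and 3.52% in liver. The GC content was 57% at the median beside islands and CpG-dense tiles, 55% near GENCODE starts, and 53% in both other groups. Tiles in which over 50% of the stretches of 31 bases occur elsewhere in the genome numbered 4, 26, 3 and 6.

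The surroundings of the tiles ranged from unmethylated to methylated. Tiles that did not adjoin a distal unmethylated tile and started no more than 1000 bp away, distal unmethylated tiles left out, were measured for 2035 of the 2815, and their median level had a median over these 2035 of 21.7% for liver, 23.9% for brain and 17.2% for heart. The quartiles ran from 4.90% to 58.4% in liver, from 5.46% to 54.4% in brain and from 3.6% to 49.8% in heart. Comparison tiles had neighbours at 85.1%, 83.1% and 77.5%, and start-proximal tiles at 1.46%, 0.967% and 1.17%. Around tiles with the CTCF motif the neighbours stood at 61.95%, 58.2% and 52.2%, around tiles beside islands and CpG-dense tiles at 4.13%, 3.97% and 2.83%, near GENCODE starts at 29.0%, 37.3% and 23.8% (82 tiles with neighbours), and in the remainder at 44.2%, 39.1% and 34.9%. The low neighbours of the second group follow in part from the sorting itself, which used an island or an unmethylated neighbour, and they are no finding. Of 962 tiles with at least 3 such neighbours, 365 (37.9%) had a neighbour median under 10% over the 3 tissues and 258 (26.8%) one over 50%.

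Of the 3 kinds of distal unmethylated tile, the level rose most from 100 to 500 bp around those with the CTCF motif. Tiles that started 100 bp from a distal unmethylated tile with the motif averaged 27.8% in liver, 24.98% in brain and 23.4% in heart, and those 500 bp away 63.4%, 62.6% and 59.9%. Beside islands and CpG-dense tiles the means were 6.69%, 6.24% and 5.01% at 100 bp and 25.7%, 26.3% and 22.0% at 500 bp. These low means follow in part from the sorting, which used an island or an unmethylated neighbour. Around other distal unmethylated tiles the means were 23.4%, 22.4% and 18.2% at 100 bp and 51.9%, 50.5% and 44.15% at 500 bp. The long CTCF motif occurred 7351 times over 10 kb from a start, and measured tiles lay at few of these places. The 320 tiles centred on a motif, whatever their level, averaged 28.3%, 26.3% and 24.3%, the 662 tiles 200 bp away 60.5%, 58.2% and 54.8%, and the 631 tiles 400 bp away 72.4%, 70.4% and 65.9%. Tiles 400 bp from comparison tiles averaged 76.3%, 74.8% and 69.4%. The dip at the motif was thus present in all 3 tissues without any choice of tiles by level.

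**Figure D4:**
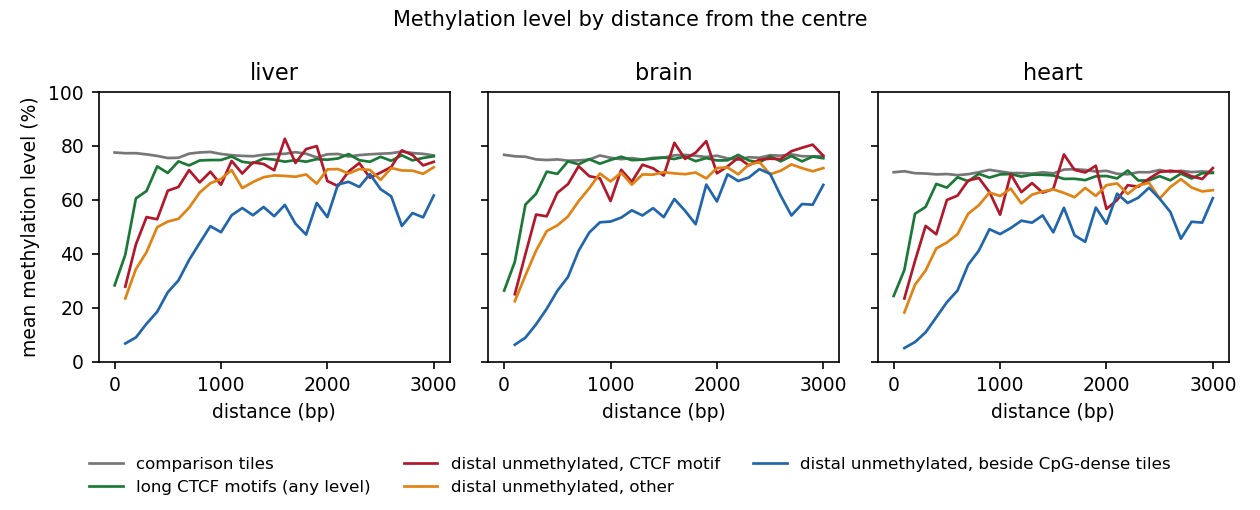
The panels give, for liver, brain and heart, the mean methylation level (%) of tiles by the distance in bp from the nearest centre, with distal unmethylated tiles themselves left out around the 3 kinds of distal unmethylated tile. At 500 bp in liver the means are 25.7% beside CpG-dense tiles, 51.9% around other distal unmethylated tiles, 63.4% around those with the CTCF motif, 70.0% around CTCF motifs of any level and 75.5% around comparison tiles.

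The 5 tiles with the most methylated surroundings had neighbours of about 90% in every tissue, with other distal unmethylated tiles left out of the neighbours. The nearest RefSeq gene of a pair of these tiles is Hsp90aa1, a chaperone gene, whose nearest RefSeq start lay 10706 and 10506 bp away. Each tile of the pair was thus left out of the neighbours of the other. The right tile had levels of 0 to 4.9% in liver (median 1.55%), 3.4% to 8.6% in brain (median 6.65%) and 0 to 1.3% in heart (median 0.9%), and its 5 neighbours had a median of 95.4%, 93.7% and 92.9% in the same order. The brain libraries were all above the heart libraries there and overlapped those of liver. The left tile ran from 0 to 5.4% in liver, from 0.4% to 3.9% in brain and from 0.4% to 1.7% in heart, beside neighbours at 94.0%, 89.4% and 92.2%, with all 3 tissues overlapping.

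The tile near Gm39040 held the long CTCF motif and lay 44292 bp from an island. Its libraries ran from 0 to 3.5% in liver, from 0 to 3.6% in brain and from 0 to 2.5% in heart, and its 3 neighbours stood at 93.3%, 93.3% and 88.9%. The tile in an intron of Esrrb, an orphan nuclear receptor gene of pluripotent cells, had the motif within 300 bp and touched an island, with 0 to 6.7% in liver, 1.6% to 4.1% in brain and 0.6% to 3.5% in heart beside neighbours at 92.4%, 90.9% and 87.6%. The tissues overlapped in both. The tile near Cr2, a complement receptor gene, touched an island and adjoined another distal unmethylated tile, at chr1:195241401-195241500. The adjoining tile, at 1.63%, 2.43% and 1.78% in liver, brain and heart, was left out of the neighbours. The Cr2 tile lay 494 bp from the GENCODE start of Gm27940 and shared 21.4% of its stretches of 31 bases with other places. It was the only 1 of the 5 with such a share above 0. Its libraries ran from 0 to 3.2% in liver, from 0 to 3.3% in brain and from 0 to 9.4% in heart, beside neighbours at 91.5%, 91.4% and 91.9%, with all 3 tissues overlapping.

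**Figure D5:**
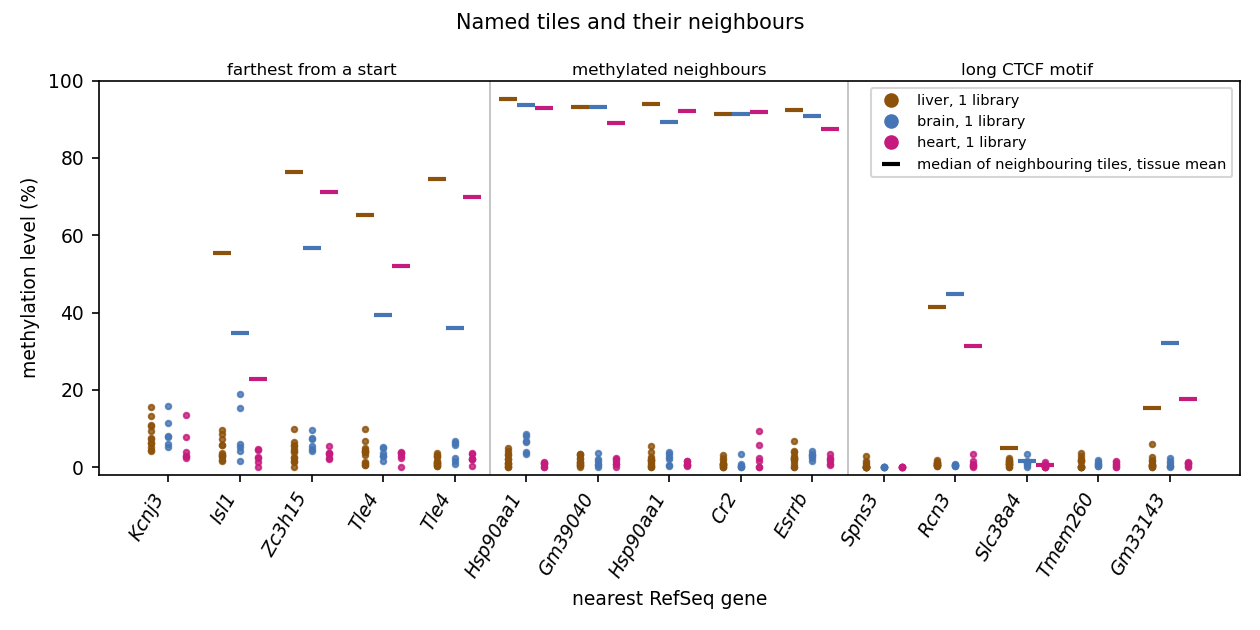
The vertical axis gives the methylation level (%) of each library (points) and of the median neighbouring tile in each tissue (bars, where there was a neighbour) for the 5 tiles farthest from a start, the 5 with the most methylated neighbours and the 5 with the long CTCF motif and the lowest levels, named along the horizontal axis by the nearest RefSeq gene. All points lie under 20%, and in the middle section the bars lie between 87.6% and 95.4%.

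The tiles farthest from RefSeq starts varied in level. The farthest, 589431 bp from Kcnj3, which encodes a potassium channel subunit, lay in AT-rich sequence with 32% GC and ran from 4.2% through 7.45% to 15.7% in liver, from 5.3% through 7.85% to 15.9% in brain and from 2.3% through 3.45% to 13.5% in heart. The tissues overlapped. A GENCODE start, of Gm13518, lay only 14353 bp away, so its distance depends on the annotation. The tile 306878 bp from Zc3h15 at chr2:83337601-83337700 held the long CTCF motif with a single CpG and ran from 0 to 9.8% in liver, from 4.3% to 9.5% in brain and from 2.0% to 5.5% in heart, among neighbours at 76.4%, 56.8% and 71.1%. The others were a tile 306888 bp from Isl1 at chr13:116002701-116002800 and 2 adjoining tiles 292618 and 292718 bp from Tle4, a corepressor gene, at chr19:14890801-14891000. The Tle4 tiles were below 10% in every library. For the left and right tile, the means were 1.61% and 3.75% in liver, 3.95% and 3.52% in brain and 2.28% and 2.75% in heart. The Isl1 tile reached 18.9% in 1 brain library. Counted from GENCODE starts, the Zc3h15 tile lay 16249 bp away, the Isl1 tile 93235 bp and the Tle4 tiles 69866 and 69766 bp.

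Distal unmethylated tiles clustered. Merged where gaps were at most 1 kb, they formed 1597 runs, of which 886 held 1 tile and 53 held 5 or more, and 1929 tiles (68.5%) were in runs of at least 2. The longest by span, 11 tiles at chr11:119052301-119056500, began 11388 bp from the start of Cbx8, which encodes a Polycomb protein. Its mean level was 2.69% to 4.98% over the liver libraries, 2.62% to 4.93% over the brain libraries and 1.76% to 4.56% over the heart libraries. Of 17 measured tiles in that span 16 were below 10% in the 3 tissues, and 1 of the 11 touched an island. The tissues overlapped throughout.

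The run of 10 tiles at chr2:74738501-74741100 lay in the Hoxd cluster, in an intron of Hoxd3, a homeobox gene of body axis patterning. For 5 tiles the nearest RefSeq start was that of Mir10b (12431 to 13131 bp away). For the other 5 it was that of the predicted gene Gm14424 (11584 to 12384 bp away). The nearest GENCODE starts were only 319 to 1382 bp from these tiles, so the distance depends on the annotation. The mean level of the run was 2.28% to 6.09% in liver, 2.52% to 12.3% in brain and 3.43% to 5.84% in heart. Brain was thus the most spread tissue there, and 12 of its 14 measured tiles were below 10% in all tissues. The run of 8 tiles at chr15:102692401-102694100 lay 20535 bp from Mir688, between genes, with 1.74% to 6.30%, 1.53% to 4.76% and 1.24% to 3.64%, and all 12 measured tiles of its span were below 10%.

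A pair of long runs held some copied sequence. All 11 tiles at chr10:7390701-7393400 nearest Ulbp1 and all 10 tiles at chr13:3358701-3361000 nearest Gm40653 touched islands, and the spans overlap the GENCODE pseudogenes Gm21321 and Gm16505. Over 50% of the stretches of 31 bases occur elsewhere in the genome in 3 and 2 of their tiles. Their mean levels were 2.69% and 2.17% in liver, 1.51% and 1.85% in brain, and 1.81% and 1.95% in heart, and reads of these tiles may stem from the copies, which was not tested. Over all distal unmethylated tiles such copied tiles were few, 39 of 2815 (1.39%), against 216 of 14360 (1.5%) of every 20th comparison tile and 0.963% of start-proximal tiles. No tile shared such a stretch with the mitochondrial genome.

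Genes of developmental transcription factors were the nearest to more distal unmethylated tiles than to comparison tiles. Taken by symbol (families such as Hox, Pax, Sox, Fox, Irx and Tbx), they were nearest to 106 tiles (3.77%, 3.09% to 4.54%), against 0.850% of comparison tiles and 1.98% of start-proximal tiles. These were 29 genes, led by Pax7, a factor of muscle stem cells and neural crest, with 13 tiles, Six3, a forebrain and eye factor, with 9, Sox1, an early neural factor, with 8, and Foxd1 with 8, and 8 of the 53 runs of 5 or more tiles (15.1%) were nearest to such a gene. Counted by runs, 38 of 1597 (2.38%) were, so the share by tiles rests in part on a few long runs. A start of such a gene lay within 100 kb of 226 tiles (8.03%, 7.05% to 9.09%), against 2.56% of comparison tiles. Of the 106, 66 were beside an island or a CpG-dense unmethylated tile and 1 had the CTCF motif within 300 bp. In all, 1446 genes were nearest to at least 1 distal unmethylated tile, so these families were a small part.

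The restriction sites common in RRBS were also counted, and TCGA was less frequent in distal unmethylated tiles and in start-proximal tiles than in comparison tiles. Every CpG lay in a CCGG or TCGA, the sites of MspI and TaqI, in 14.1% (12.9% to 15.5%) of distal unmethylated tiles and in 14.7% of comparison tiles. A CCGG was in 63.4% (61.6% to 65.2%) against 58.9%, and a TCGA in 28.7% (27.1% to 30.4%) against 39.0%. Start-proximal tiles had a CCGG in 61.79% and a TCGA in 25.35%. Standardised to CpG number and GC content instead, comparison tiles had a CCGG in 63.55% and a TCGA in 33.91%. The difference in CCGG was thus no longer seen, and that in TCGA was smaller. The enzymes used were not given in the sources used here.

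Tissue differences were tested on the neighbouring tiles, whose levels the choice did not use directly. The 3544 tiles that neighboured distal unmethylated tiles in this sense had a mean level of 35.8% ± 0.554 in liver (SD, n = 12), 35.7% ± 0.447 in brain (n = 6) and 31.7% ± 0.257 in heart (n = 6). With limma over all 758685 tiles, a Benjamini-Hochberg adjusted p under 0.05 and 25 percentage points or more between tissue means, 162 neighbours (4.57%) were higher and 186 (5.25%) lower in brain than in liver, beside 4.77% and 5.04% of all tiles. In heart against liver 84 (2.37%) were higher and 229 (6.46%) lower, beside 2.87% and 7.94%. In heart against brain 50 (1.41%) were higher and 179 (5.05%) lower, beside 1.76% and 7.72%. The shares of neighbours were thus near or below those of all tiles. They were below those of the comparison tiles in each direction. Of the comparison tiles, 5.42% were higher and 7.02% lower in brain than in liver. In heart the shares were 3.15% and 10.7% against liver, and 2.53% and 10.3% against brain. Neighbours can include tiles below 10% in all 3 tissues, which cannot differ by 25 points, while comparison tiles by definition cannot. The lower shares of neighbours are thus in part built in, and the size of this part was not tested. The 3 contrasts share libraries. No distal unmethylated tile was called in any contrast, as its tissue means under 10% cannot differ by 25 points.

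The neighbours with the largest differences were picked after their values were seen. In brain against liver it was a tile at chr3:104441401-104441500 nearest Gm38412, with 8.0% to 23.1% over the liver libraries, 93.3% to 97.8% over the brain libraries and 58.2% to 66.1% over the heart libraries (80.7 points, limma adjusted p = 6.64e-19). In heart against liver it was a tile at chr8:108887501-108887600 nearest Mir3108, with 5.3% to 34.8% in liver, 36.2% to 74.3% in brain and 89.1% to 98.0% in heart (71.2 points, limma adjusted p = 2.94e-12). In heart against brain it was a tile nearest Impa2, an inositol phosphatase gene, with 55.3% to 76.7% in liver, 62.9% to 84.8% in brain and 0.8% to 16.3% in heart, lower in heart by a difference of -65.6 points (limma adjusted p = 2.51e-12). The tissues compared did not overlap in any of the 3. A tile at chr13:116705701-116705800 nearest 4930435F18Rik was 51.1% to 100% in liver, 0 to 6.2% in brain and 0 to 2.6% in heart, beside distal unmethylated tiles that were low in all 3 tissues.

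Tile positions and tissue labels were checked on the tables. A CpG of mm10 lay in 99.9% of tiles and in 55.5% of tiles moved by 100000 bp. Of 15 genes used by 1 tissue, 9 had tiles within 1 kb of a curated start, and 4 of the 9 were lowest in their own tissue. The clearest were the prothrombin gene F2 (20.6% in liver, 84.2% in brain, 78.1% in heart) and the cardiac myosin gene Myl2 (88.9%, 80.7%, 46.7%). The natriuretic peptide gene Nppa went the other way, with 80.7% in liver, 37.3% in brain and 73.3% in heart, and the brain genes Olig1, Slc1a2 and Gad1 were under 5% in all tissues. The heart gene Ryr2 was lowest in brain too (10.19%, with 11.11% in heart), and the brain gene Mbp was lowest in heart (18.44%, with 22.25% in brain). By tissue, 1 of 1 liver gene, 2 of 5 brain genes and 1 of 3 heart genes were lowest in their own tissue. The check is therefore weak for brain and heart and rests on 1 gene for liver. Tissue means per library ranged little within a tissue, and brain column 1 lay farthest from the others of its tissue.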

How the data were processed

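Levels were analysed in 24 RRBS libraries. The authors deposited, per tissue, the fraction of methylated CpG calls in tiles of 100 bp, made after sequencing and mapping by a commercial service, and kept tiles with over 10 reads in all replicates and below the 99.8th percentile of coverage. The submitters' processing notes name mm10, Bismark and methylKit. Columns were assigned to tissues only, and no test between genders was made. Per the labels each library of a tissue is from a different mouse, and brain and heart are from mice also used for liver. As the columns could not be tied to mice, the contrasts between tissues had no term for the mouse.

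Tiles of the 3 tables were joined by position and set against mm10 sequence, RefSeq and GENCODE M21 annotation (Python 3.11.15, numpy 2.4.6, pandas 2.3.3). CpG islands were called on repeat-masked sequence with scores of 17 for a CpG and -1 for other bases, over 200 bp, at least 50% GC and observed to expected CpG above 0.6. Shares have exact 95% intervals (scipy 1.17.1), which cover the counting of tiles only. Tissue contrasts were fitted with limma 3.58.1 (R 4.3.3) over all tiles, with Benjamini-Hochberg adjustment, and the fit was tested on simulated data. The depth behind each level is unknown, since the deposited values hold no read counts, and low-depth levels are less precise.

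Named tiles were the 5 longest runs, the 5 tiles farthest from a RefSeq start, the 5 with the largest difference from at least 3 neighbours among tiles below 10% in every library, the 5 with the long CTCF motif and the lowest mean level, and 3 on either side of the level threshold. Tiles on chromosome 18 were named without sequence. The tiles, motifs and gene families were chosen with earlier results of these data known.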

Additional observations from a re-analysis of the deposited data

Results flagged for a closer look

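In 62 groups of 6 brain or heart libraries, the highest or lowest library was tested for its gap to the others, and 6 groups had a library past Dixon's 95% critical value. By chance this happens in about 1 of 20 groups. The 12 liver libraries were too many for this test. No explanation was tested for any of the 6.

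Of the distal unmethylated tiles, 17.19% were at 0 in brain column 1, against 10.7% to 12.5% in the other brain libraries. The mean level over all tiles was 60.29% in heart column 3 and 59.55% to 59.76% in the other heart libraries. The tile near Mir688, in a run of 8 tiles, was at 1.1% in brain column 2 and at 0 to 0.4% in the other brain libraries. The tile near Cr2, the complement receptor gene, was at 3.3% in brain column 1 and at 0 to 0.7% in the others. The tile near Fbxo8, just inside the level threshold, was at 11.5% in brain column 2 and at 5.9% to 7.9% in the others. The right tile of the pair near Tle4 was at 0 in heart column 2 and at 2.5% to 3.9% in the other heart libraries. The 4 single tiles rest on levels of unknown depth.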

How the results depend on the processing

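The number of distal unmethylated tiles depended on the limits by construction. From 2815 it went to 1642 with all tissue means below 5%, to 1548 with every library below 10%, to 4329 beyond 5 kb, to 452 beyond 50 kb, to 4791 with curated RefSeq starts alone and to 1793 with GENCODE starts added, and it stayed within 1.5 times under a limit of 15% (3816), other repeat limits (1885 and 2968) and without liver column 8 (2827) or brain column 1 (2786), which were left out after seeing the data. The share with the long CTCF motif, 4.41%, was 11.47% in windows of 300 bp, 5.636% over the first tile of each run, 7.702% over runs with the motif in any tile, 5.491% with every library below 10%, and 15.03% for the short core. With curated transcripts alone, 70.87% were intergenic and 22.95% intronic, and islands called without masking were touched by 13.68%. Standardising to CpG number and GC content, an alternative chosen after seeing the data, moved the ratio of the share to that in comparison tiles from 94.7 to 73.07 for the CTCF motif in the tile, from 8.97 to 6.817 for islands, from 2.19 to 1.665 for the SP and KLF motif and from 65.9 to 56.26 for CpG-dense unmethylated neighbours. With CpG number alone the last was 72.12 and that of intergenic tiles 1.623 against 1.716. No ratio changed direction. Neighbours up to 300 bp away had medians of 10.34%, 11.89% and 7.517% in liver, brain and heart, and those more than 1000 and up to 2000 bp away 74.24%, 72.59% and 63.71%. With a difference of 10 points or more, 1160 neighbours were called between brain and liver, 1040 between heart and liver and 1039 between heart and brain, against 348, 313 and 229 with 25 points. Without brain column 1 the counts were 373, 313 and 257. In all, 26 of 55 alternatives moved values by less than their error or counts by less than 1.5 times. The files give no depth, so levels of single tiles have no interval. No paired analysis was possible because the columns carry running numbers that are tied to no mouse.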
